A study of Mus musculus with 6 samples.

Results

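The genes described here are 10 of the 37979 in the deposited expression table: Kcna1 to Kcna7, which code the Kv1 (Shaker-type) α subunits Kv1.1 to Kv1.7, and Kcnab1 to Kcnab3, which code the Kvβ1 to Kvβ3 subunits. They were chosen by name, as the channel-forming α subunits that bind Kvβ proteins together with the Kvβ genes. The hindlimb gastrocnemius (GAS) muscles came from 3 wildtype (WT) and 3 Kvβ2 knockout (KO) male mice, young (20 weeks) and untreated, 1 library per mouse. Both genotypes were offspring of interbred heterozygous Kvβ2 null mice, so that the KO mice lacked Kvβ2 (gene Kcnab2) in every tissue from conception and not in muscle alone. The libraries carry the replicate numbers 1, 7 and 8 in each genotype, and the values are fragments of each gene scaled to its length and to the mapped fragments of the library (FPKM), which are per length and so allow levels of different genes to be set side by side.

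A Kv1 channel is a ring of α subunits around a pore that lets potassium leave the cell when the membrane depolarises, which ends the action potential and sets how readily a fibre fires again. Kvβ subunits are cytosolic proteins of the aldo-keto reductase fold that bind the intracellular T1 domain of Kv1 α subunits, change how fast the channel inactivates, and help carry it to the cell surface. Kv1.1 and Kv1.2 are best known from myelinated axons, Kv1.3 from T cells, Kv1.5 from atrium and vascular smooth muscle, and Kv1.7 from skeletal muscle and heart.

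The pore letters show how close these genes are to each other, which matters for reads that could come from more than one of them. Below are 36 coding bases of each α gene, 5′ to 3′ on the coding strand, read from the GENCODE vM21 transcripts on GRCm38. Capitals mark the 18 bases that code the potassium selectivity filter, the row of residues that strips water from the ion. Kcna10 (Kv1.8) stands outside the 10 genes and is shown because a later result turns on it.
Kcna7 (chr7:45409452-45409487, plus strand): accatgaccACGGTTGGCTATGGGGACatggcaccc
Kcna5 (chr6:126533733-126533768, minus strand): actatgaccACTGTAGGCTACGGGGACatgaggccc
Kcna1 (chr6:126642216-126642251, minus strand): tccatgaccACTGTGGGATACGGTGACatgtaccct
Kcna2 (chr3:107105215-107105250, plus strand): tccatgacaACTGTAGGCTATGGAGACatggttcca
Kcna6 (chr6:126738635-126738670, minus strand): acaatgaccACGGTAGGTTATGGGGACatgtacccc
Kcna3 (chr3:107037602-107037637, plus strand): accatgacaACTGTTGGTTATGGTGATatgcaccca
Kcna4 (chr2:107296486-107296521, plus strand): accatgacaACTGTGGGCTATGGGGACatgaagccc
Kcna10 (chr3:107195306-107195341, plus strand): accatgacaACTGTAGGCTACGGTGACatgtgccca
All 8 stretches translate to the same 6 filter residues, yet their letters differed from those of Kcna7 at 6 (Kcna4, Kcna6) to 10 (Kcna1) of the 36 positions.

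Longer exact matches were few. Of the 55 pairs among the 10 genes and Kcna10, 22 shared an exact stretch of 20 bases, 4 one of 30 bases and 2 one of 50 bases. The longest joined Kcna5 and Kcna6 over 91 coding bases, at chr6:126533950-126534040 and chr6:126738852-126738942 on the minus strand, and is printed because it covers the voltage sensor. Capitals mark its 6 in-frame arginine and lysine codons, which recur at a fixed spacing and carry the gating charges of the voltage sensor helix.
Kcna5 and Kcna6: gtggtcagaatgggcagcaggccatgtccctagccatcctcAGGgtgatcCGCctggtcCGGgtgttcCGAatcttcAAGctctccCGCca
The other pair was Kcna3 and Kcna10, with 55 bases in common in the part that codes the membrane helix before the pore (chr3:107037488-107037542 and chr3:107195192-107195246, plus strand).
Kcna3 and Kcna10: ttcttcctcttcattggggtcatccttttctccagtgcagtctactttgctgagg
Reads were 150 bases from both ends of a fragment, longer than either stretch, but how reads that matched several places were shared out is not given in the sources used here.

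A few facts of the libraries bear on all that follows. The FPKM steps of low genes gave estimates of 20440000 to 21290000 fragments in the WT libraries and 15040000 to 19410000 in the KO libraries, with 90.7% to 94.3% of low values falling within 0.15 of a whole fragment. Muscle identity held in all 6: of 14 skeletal muscle markers, 12 were abundant and 2 (Myh4 and Tnnt3) were listed at 0 in every library, for reasons not tested here. WT replicate 8 stood apart by its slow fiber markers, whose summed FPKM was 39.3 there against 304 to 1687 in the other 5 libraries. Fold changes tracked the base composition of the transcripts: across tested genes Spearman's correlation between GC content and log2 fold change was 0.70, and the median log2 fold change ran from -0.30 in genes under 45% GC to 0.68 in genes at 60% GC or more. The value after a GC correction therefore stands beside most fold changes of single genes.

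Kcna7 and Kcnab1 made up nearly all of the Kv1 and Kvβ transcript in GAS muscle in both genotypes. In WT muscle mean FPKM was 34.6 ± 4.16 (SD, n = 3) for Kcna7, 19.5 ± 4.44 for Kcnab1 and 1.22 ± 0.155 for Kcna5, and each of these ranges stood clear of the next. Kcna1 came next at 0.517 ± 0.259, also clear of the genes under it. Kcna2, Kcnab2 and Kcna6 followed with means of 0.147 to 0.183 and overlapping ranges, and Kcnab3, Kcna4 and Kcna3 were at 0 or at the level of about 1 fragment. The order in KO muscle was the same for the first 4 places, but there the range of Kcna1 overlapped that of Kcna6, and Kcnab2 came near the end of the order. Kcna7 took 91.6% to 95.1% of the summed α FPKM in every library, and Kcnab1 took 98.2% to 100% of the summed β FPKM.

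**Figure D1:**
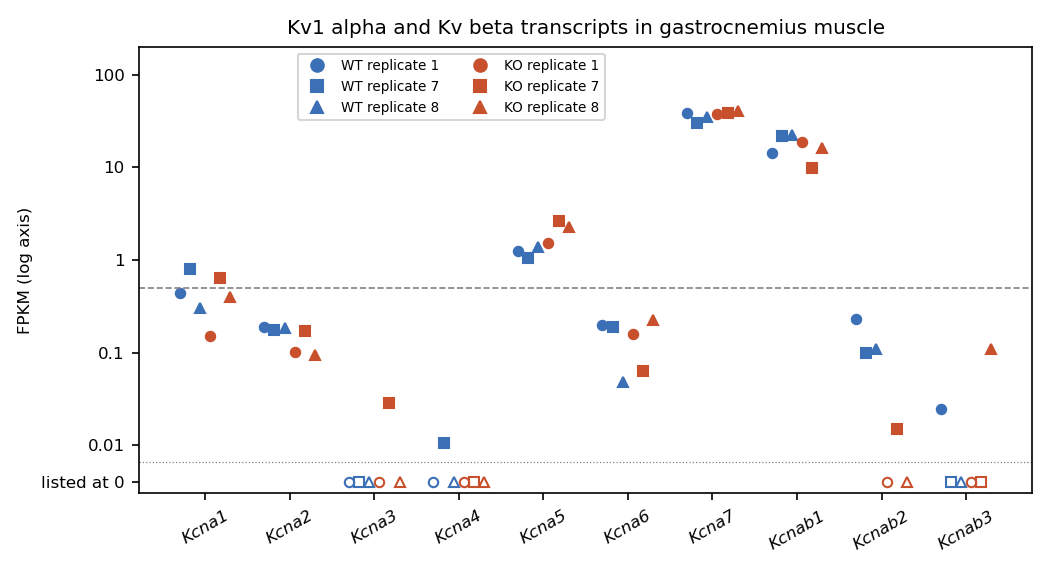
FPKM on a log axis for the 10 genes in each of the 3 WT (blue) and 3 KO (red) libraries, with open symbols on the bottom line for values listed at 0 and a dashed line at the mean FPKM of 0.5 that a gene needed to enter the fit. Kcna7 and Kcnab1 lie at about 10 or above, Kcna5 between 1 and 3, and the other 7 genes under 1, with Kcnab2 at or next to 0 in the KO libraries.

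The comparison asked whether loss of Kvβ2 went along with another transcript level of the α subunits it binds or of the remaining β subunits. In the fit across all genes, 0 of the 3 genes that reached a mean of 0.5 FPKM (Kcna7, Kcna5 and Kcnab1) passed a Benjamini-Hochberg adjusted p of 0.05 by limma, where 0.324% of all 12334 tested genes did (0.251% higher and 0.073% lower in KO). Of the 3, 1 (Kcna5) had an unadjusted p under 0.05, against 26.2% of tested genes (15.3% higher and 10.9% lower in KO). With limma's array weights, which weight libraries by how well they follow the others, Kcna5 and Kcna7 passed, both higher in KO, but so did 25.5% of all tested genes (15.1% with KO higher). The other 7 genes lay under the filter and were compared by their values alone. In 2 of those 7 (Kcna2 and Kcnab2) the genotypes did not overlap, which held for 9.13% of all genes under the filter with a value above 0, and in 1 of the 3 tested (Kcna5), against 34.5% of tested genes. Because the tissue is bulk muscle, fewer cells of a type and less RNA per cell cannot be told apart in any of these values.

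Kcna7 (ENSMUSG00000038201, chr7:45405653-45409763, plus strand, GRCm38) codes the main muscle α subunit, Kv1.7. Its FPKM was 38.4, 30.1 and 35.2 in WT replicates 1, 7 and 8 and 37.5, 38.9 and 40.6 in the same KO replicates. WT replicate 7 was the lowest of all 6 and KO replicate 8 the highest, and the groups overlapped through WT replicate 1. On the log2(FPKM + 0.1) scale, on which all fold changes here are given and which understates those of low genes, the KO mean was higher by 0.18 (SE 0.12, 95% interval -0.099 to 0.46, adjusted p = 0.370), and by 0.083 without WT replicate 7. Kcna7 transcripts are rich in G and C (59.8%), and genes of 55% to 60% GC had a median log2 fold change of 0.45. After the GC correction the direction turned, to -0.42 (SE 0.16, unadjusted p = 0.0363, adjusted p = 0.409 by limma), so that neither a rise nor a fall of Kcna7 was shown.

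Kcna5 (ENSMUSG00000045534, chr6:126532551-126535412, minus strand), which codes Kv1.5, was the only one of the 10 genes with every KO library above every WT library. FPKM was 1.24, 1.06 and 1.37 in WT replicates 1, 7 and 8 and 1.53, 2.66 and 2.29 in the KO replicates. KO replicate 1 lay close to the highest WT library, while KO replicates 7 and 8 stood well above it. The means were 1.22 ± 0.155 and 2.16 ± 0.579 (SD, n = 3), and KO libraries lay above WT libraries in this way for 18.3% of tested genes. The log2 difference was 0.75 (SE 0.24, 95% interval 0.19 to 1.30), with an unadjusted p of 0.0148 and an adjusted p of 0.116 by limma. The exact permutation test on the FPKM gave p = 0.1 (two-sided), the smallest that 3 against 3 libraries allow. The direction was the same without any 1 library (0.58 to 0.96) and after the GC correction (0.49). The 95% interval after that correction included 0 (-0.048 to 1.03, unadjusted p = 0.0684, adjusted p = 0.480 by limma).

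As a share of all α transcript, Kcna5 was above its WT range in each KO library. It took 3.06%, 3.27% and 3.68% of the summed α FPKM in WT replicates 1, 7 and 8 and 3.87%, 6.28% and 5.25% in the KO replicates, a within-library measure that no scaling of the libraries can change (exact permutation p = 0.1). About 58.5 to 78.7 fragments in WT and 62 to 139.6 in KO libraries stood behind these values. In muscle tissue Kv1.5 is also a channel of vascular smooth muscle, and the summed FPKM of 6 smooth muscle markers was also higher in every KO library, at 34.1 to 46.9 in WT and 55.1 to 69.8 in KO libraries. Of the 4 of these markers that were tested, 0 were called and 3 (Smtn, Acta2 and Myh11) had an unadjusted p under 0.05, all higher in KO, as for 15.3% of tested genes. Their log2 differences of 0.61, 0.67 and 0.57 became 0.011, 0.68 and 0.38 after the GC correction. The summed FPKM of 5 adipocyte markers was 3.84 to 17.4 in WT and 18.4 to 83.4 in KO libraries. All 5 were tested and 0 were called. Of them, 4 had an unadjusted p under 0.05 by limma, all higher in KO, as for 15.3% of tested genes. Adipoq and Lep overlapped between genotypes. KO replicate 7 was highest for the smooth muscle and adipocyte sums and for Kcna5. The same library was also highest for the endothelium, macrophage and Schwann cell markers (summed FPKM 47.0, 22.9 and 139). Their part in the Kcna5 difference was not tested.

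**Figure D2:**
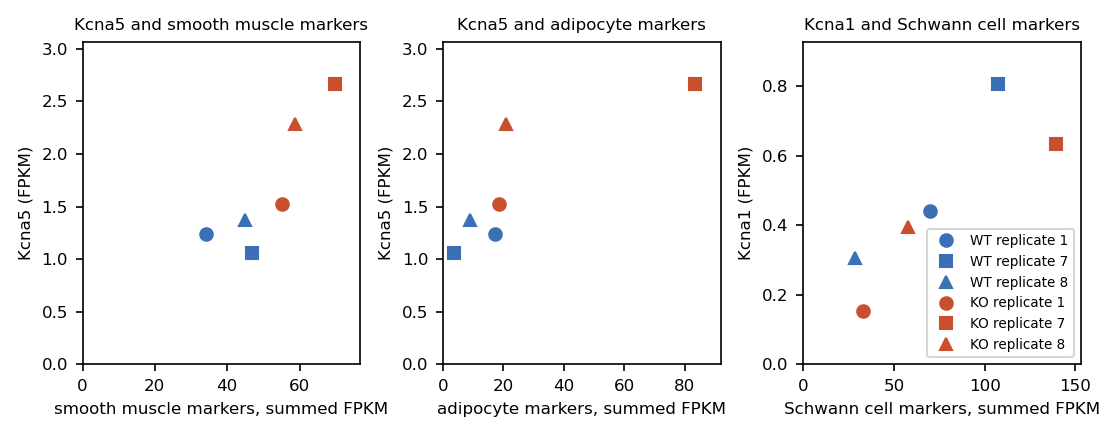
Kcna5 FPKM against the summed FPKM of smooth muscle (left) and adipocyte markers (middle), and Kcna1 FPKM against the summed FPKM of Schwann cell markers (right), 1 point per library, WT in blue and KO in red. KO replicate 7 has the most Kcna5 and the highest smooth muscle and adipocyte sums, and both replicates numbered 7 have the most Kcna1 and the highest Schwann cell sums.

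Both axonal α subunits were present at low levels. Kcna1 (ENSMUSG00000047976, chr6:126640397-126646384, minus strand; Kv1.1) measured 0.440, 0.806 and 0.305 FPKM in WT replicates 1, 7 and 8 and 0.152, 0.633 and 0.394 in the KO replicates. The groups overlapped (difference of means -0.124 FPKM, exact permutation p = 0.6), and both replicates numbered 7 were highest within their genotype. The summed FPKM of 8 Schwann cell markers, the cells that wrap motor axons, was 69.7, 107 and 28.7 in WT and 33.1, 139 and 57.9 in KO replicates 1, 7 and 8. In both genotypes the libraries fell in the same order for Kcna1 and for these markers. Kcna2, given next, fell in that order in neither genotype. A link between Kcna1 and the Schwann cell markers was not tested. Of 6 neuronal markers, 4 (Chat, Nefl, Snap25 and Tubb3) were at 0 in every library.

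Kcna2 (ENSMUSG00000040724, chr3:107101146-107115005, plus strand; Kv1.2), the usual partner of Kv1.1 in axons, was lower in every KO than in every WT library. WT replicates 1, 7 and 8 read 0.190, 0.177 and 0.183 FPKM, and the KO replicates with those numbers 0.101, 0.172 and 0.0939. KO replicate 7 lay just under the lowest WT library, and the other KO libraries clearly below (means 0.183 ± 0.00687 and 0.122 ± 0.0430, SD, n = 3; difference -0.0609 FPKM, exact permutation p = 0.1). Among the 4277 genes of mean 0.05 to under 0.5 FPKM, 4.75% had all KO libraries below all WT libraries. About 41.3 to 44.5 fragments in WT and 17.0 to 38.1 in KO libraries stood behind these values if all fell on the longest transcript. In the fit with no filter, the log2 fold change of Kcna2 was -0.37 (adjusted p = 0.494), where 0.0982% of 20361 genes were called, and with the GC correction added it was -0.27 (adjusted p = 0.714).

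The remaining α subunits were at the edge of detection. Kcna6 (ENSMUSG00000038077, chr6:126708329-126740674, minus strand; Kv1.6) measured 0.201, 0.191 and 0.0479 FPKM in WT replicates 1, 7 and 8 and 0.159, 0.0639 and 0.223 in the KO replicates, with full overlap (exact permutation p = 1). Kcna3 (ENSMUSG00000047959, chr3:107036169-107038070, plus strand; Kv1.3 of T cells) was listed at 0 in 5 libraries and at 0.0284 in KO replicate 7, the value of 1 fragment. The 5 T cell markers had a summed FPKM of 0.767 to 1.64 in WT and 0.753 to 1.54 in KO libraries. Kcna4 (ENSMUSG00000042604, chr2:107290639-107298502, plus strand; Kv1.4) was listed at 0.0105 in WT replicate 7 and at 0 elsewhere. At this depth a difference in Kcna3 or Kcna4 was not detectable.

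Kcnab2 (ENSMUSG00000028931, chr4:152390742-152477871, minus strand), the deleted gene, was the check of the labels. WT replicates 1, 7 and 8 read 0.233, 0.10 and 0.110 FPKM, and the KO replicates with those numbers 0, 0.0151 and 0. The KO replicate 7 value was worth 1 fragment, and all KO libraries lay below all WT libraries (difference of means -0.142 FPKM, exact permutation p = 0.1). That held for 4.75% of genes of mean 0.05 to under 0.5 FPKM. In the limma fit with no filter its log2 fold change was -1.20 (adjusted p = 0.121), and -1.58 with the GC correction added (adjusted p = 0.275). The values thus went with the labels, but without a call and on few reads. If all fell on the longest of the 14 annotated transcripts, the WT values came from about 17.9, 7.70 and 8.80 fragments. Even in WT muscle Kcnab2 made up only 1.58%, 0.457% and 0.487% of the summed β FPKM. Its gene overlaps Nphp4 on the other strand, which was at 0 to 0.0962 in WT and 0.0310 to 0.187 in KO libraries. Which exons the reads came from cannot be read from one value per gene.

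Kcnab1 (ENSMUSG00000027827, chr3:65109384-65378223, plus strand), which codes Kvβ1 and was the only abundant β gene, showed no call in either direction. FPKM was 14.4, 21.8 and 22.4 in WT replicates 1, 7 and 8 and 19.0, 9.86 and 16.1 in the KO replicates. KO replicate 7 was the lowest and WT replicate 8 the highest library, and the groups overlapped because WT replicate 1 lay under 2 KO libraries. The log2 difference was -0.41 (SE 0.27, 95% interval -1.04 to 0.23, adjusted p = 0.370), and -0.20 after the GC correction (adjusted p = 0.804). Without 1 library it ran from -0.61 to -0.13, the latter without KO replicate 7. A p that misses the threshold does not show equal levels, and the interval spans both directions. Kcnab3 (ENSMUSG00000018470, chr11:69326258-69333042, plus strand; Kvβ3) was listed at 0.0245 in WT replicate 1, at 0.108 in KO replicate 8 (about 4.1 fragments) and at 0 in the other 4 libraries.

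**Figure D3:**
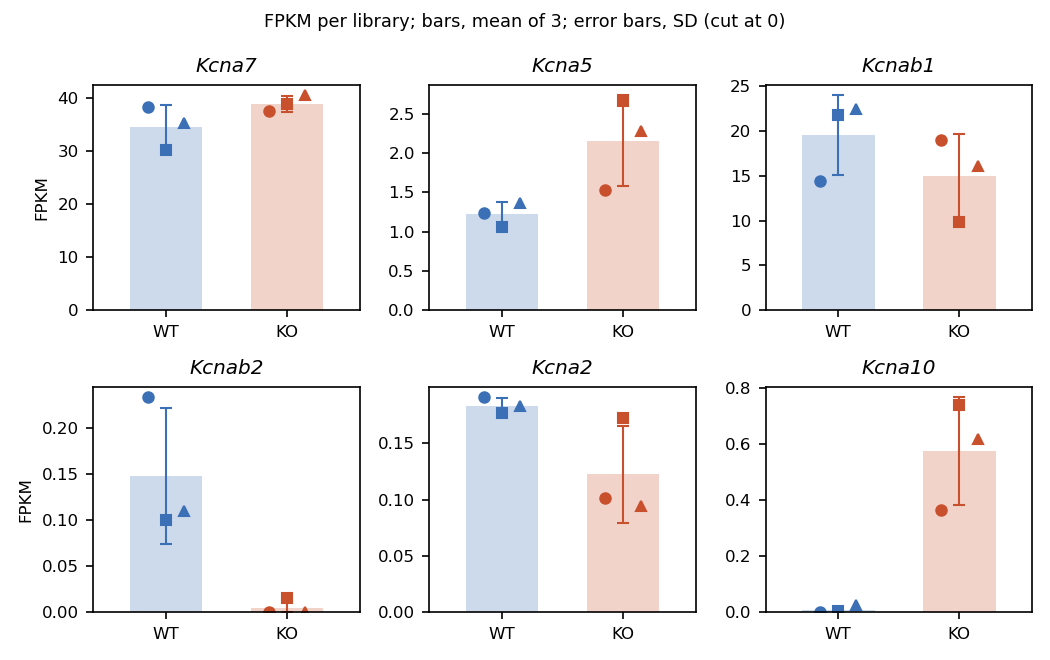
FPKM per library for Kcna7, Kcna5, Kcnab1, Kcnab2, Kcna2 and Kcna10, with bars for the mean of 3 libraries and error bars for the SD, cut at 0; circles, squares and triangles are replicates 1, 7 and 8. The genotypes overlap for Kcna7 and Kcnab1, KO libraries are higher for Kcna5 and Kcna10, and lower for Kcnab2 and Kcna2.

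Taking the subunits as a stoichiometry, the β transcript per α transcript was not distinguishable between genotypes. The summed α FPKM was 40.5, 32.4 and 37.2 in WT replicates 1, 7 and 8 and 39.4, 42.4 and 43.6 in the KO replicates (log2 difference 0.19, exact permutation p = 0.2, and 0.11 without WT replicate 7). The summed β FPKM was 14.7, 21.9 and 22.5 in WT and 19.0, 9.88 and 16.2 in KO (log2 difference -0.42, exact permutation p = 0.3). Their ratio was 0.363, 0.676 and 0.607 in WT and 0.481, 0.233 and 0.372 in KO, with WT replicate 1 inside the KO range. The ratio differed by -0.61 on the log2 scale (exact permutation p = 0.3), and by -0.33 (without KO replicate 7) to -0.88 (without WT replicate 1) leaving out 1 library. The sums and their ratio were not GC-corrected. For the genes that made up nearly all of each sum, the correction moved the log2 difference of Kcnab1 from -0.41 to -0.20. That of Kcna7 moved from 0.18 to -0.42. After the correction Kcna7 was thus lower in KO by more than Kcnab1, the reverse of the uncorrected order. The direction of the ratio difference was therefore not settled. In these libraries β transcript was always below α transcript.

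**Figure D4:**
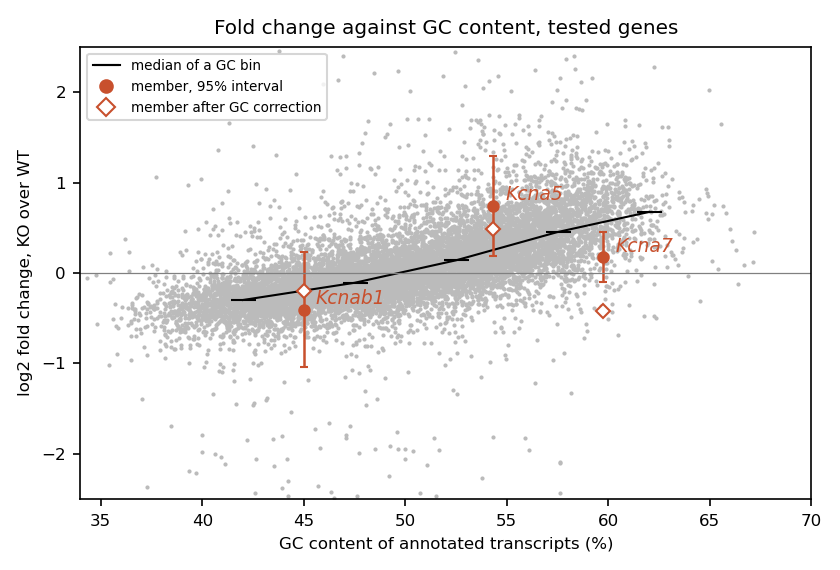
log2 fold change (KO over WT) against the GC content of the annotated transcripts in percent for 11985 tested genes (grey, 102 of them outside the axes), with the median of each GC bin (black) and Kcna7, Kcna5 and Kcnab1 with their 95% intervals (red) and after the GC correction (open diamonds). Kcna7 lies under the median of its bin, Kcna5 above it and Kcnab1 near it, and only Kcna7 crosses 0 when corrected.

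Several of these genes lie in tandem groups. On chromosome 3, Kcna3, Kcna2 and Kcna10 start within 147 kb on the plus strand. On chromosome 6, Kcna5, Kcna1 and Kcna6 lie on the minus strand within 208 kb. Genes of a group differed in their values: on chromosome 6, Kcna5 was higher in all KO libraries while Kcna1 and Kcna6 overlapped between genotypes.

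Within the chromosome 3 group, all KO libraries lay above WT for Kcna10 and below WT for Kcna2, and neither gene was called. Kcna10 (ENSMUSG00000042861, chr3:107183056-107195721, plus strand), which codes Kv1.8 and is known from kidney and vestibular hair cells, had values of 0, 0 and 0.0263 FPKM in the WT replicates, and read 0.364, 0.740 and 0.618 in KO replicates 1, 7 and 8. No WT library reached the lowest KO library (exact permutation p = 0.1), as for 9.07% of genes of mean 0.05 to under 0.5 FPKM. Kcna10 was named after its values were seen, and it lies in that range only through its KO libraries (means 0.00878 in WT and 0.574 in KO). Neither this p nor the adjusted p values below are therefore an independent test. The counts were about 1 fragment in the WT libraries together and 9.60, 25.2 and 17.1 in the KO replicates if all fell on the longest transcript. Its mean over 6 libraries was under the filter, and with no filter its log2 fold change was 2.60 (SE 0.30, adjusted p = 0.0564), and 2.5 with the GC correction added (adjusted p = 0.0626). The size of that fold rests on the 0.1 FPKM added to each value. For Kcna2, the next gene of the group, the lower KO values were not called either (adjusted p = 0.494 by limma with no filter). Kcna3, which shares the 55 bases printed above with Kcna10, was at 0 in 2 of the 3 KO libraries and at 1 fragment in KO replicate 7.

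**Figure D5:**
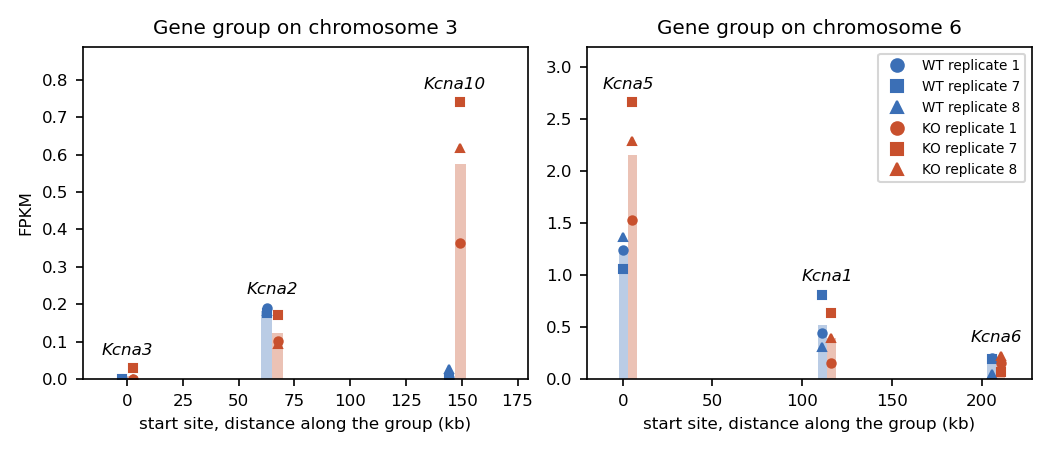
FPKM against the distance of each start site along the group in kilobases, for Kcna3, Kcna2 and Kcna10 on chromosome 3 (left) and Kcna5, Kcna1 and Kcna6 on chromosome 6 (right), with bars for the mean of 3 WT (blue) or 3 KO (red) libraries and points for single libraries; start sites are at the bar pairs. Kcna10 is near 0 in WT and at 0.364 to 0.740 in KO libraries, while the KO points of its neighbour Kcna2 lie under the WT points, KO replicate 7 only just.

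The proteins that hold, carry or modify Kv1 channels, and the other Kv channels, made up 6 lists of 69 genes, 35 of which were tested. None of the 35 passed an adjusted p of 0.05 in either direction by limma, and 6 had an unadjusted p under 0.05 (5 higher and 1 lower in KO), where 26.2% of all tested genes did (15.3% higher and 10.9% lower). The median log2 fold change was -0.04 for 4 tested scaffold genes of the membrane-associated guanylate kinase type, 0.06 for 5 tested axonal adhesion genes, -0.09 for 6 adaptor and transport genes and 0.26 for 10 kinase, anchor and ligase genes, beside 0.010 over all tested genes.

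Among the scaffolds, Dlg1 (SAP97) had FPKM of 23.8, 24.5 and 25.8 in WT replicates 1, 7 and 8. The KO replicates read 22.0, 18.3 and 21.8, all below WT, as for 16.2% of tested genes (log2 difference -0.26, adjusted p = 0.200, and -0.03 after the GC correction). Dlg4, coding PSD-95, was low and uneven, with a log2 difference of 0.89 and an adjusted p of 0.289, and of 0.60 after the GC correction. It was 0.45 without WT replicate 7 and 0.55 without KO replicate 7. Of the adhesion genes, Cntnap2 (Caspr2, which gathers Kv1 channels beside the node of Ranvier) was at 9.94 to 11.6 in the WT libraries and at 9.79, 4.98 and 9.10 in KO replicates 1, 7 and 8. All 3 KO libraries were lower, again as for 16.2% of tested genes, KO replicate 7 by most (log2 difference -0.48, adjusted p = 0.257). The difference was -0.18 without KO replicate 7 and -0.24 after the GC correction. Lgi4, a Schwann cell ligand, gave 0.46 (adjusted p = 0.394), 0.11 after the GC correction, and 0.22 and 0.23 without WT or KO replicate 7.

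Mapre1 codes the microtubule end protein EB1, through which Kvβ2 is held on microtubules. Its FPKM was 16.4, 19.0 and 17.8 in WT replicates 1, 7 and 8 and 16.2, 13.1 and 13.9 in the KO replicates. Every KO library was lower, as for 16.2% of tested genes (log2 difference -0.30, adjusted p = 0.174, and -0.04 after the GC correction). Kifap3, the cargo adaptor of kinesin-2, differed by -0.23 (adjusted p = 0.236) and by 0.0058 after the GC correction. In the kinase, anchor and ligase list, the actin-binding protein cortactin (Cttn) was at 6.59 to 6.68 in WT and 7.93 to 8.74 in KO libraries. All KO libraries lay above WT, as for 18.3% of tested genes (log2 difference 0.32, adjusted p = 0.121, and 0.14 after the GC correction). Actn2, a Z-disc α-actinin, spread from 50.5 to 113 in WT and 86.9 to 268 in KO libraries (log2 difference 0.99, adjusted p = 0.212, and 0.73 after the GC correction). It was 0.63 without WT replicate 8 and 0.65 without KO replicate 7. Its lowest value was in WT replicate 8, the library with the fewest slow fiber transcripts.

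Other voltage-gated potassium channels gave the set a background. Of 9 genes of the Kv4 complex, which makes the fast transient current of heart and brain, only Dpp6 was tested, with a log2 difference of -0.03 (adjusted p = 0.964). Of 30 other Kv α genes, 9 were tested, 7 were listed at 0 in every library and 0 were called, with 8 log2 differences above 0 and 1 below (median 0.36). Their transcripts had a median GC content of 58.3%, against 50.1% over all tested genes. The lowest p belonged to Kcnc1 (Kv3.1), with FPKM of 5.20, 5.95 and 5.69 in the WT libraries and of 8.95, 9.62 and 8.74 in the KO libraries, in replicate order. Every KO library was higher, as for 18.3% of tested genes (log2 difference 0.69, SE 0.11, adjusted p = 0.0667), and the difference was 0.28 after the GC correction (adjusted p = 0.362).

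Around the deleted locus on chromosome 4, 31 genes lay within 1 Mb of Kcnab2, 13 were tested and 0 were called, with 4 at an unadjusted p under 0.05, all higher in KO. Over all tested genes 0.324% were called and 15.3% were higher in KO at that unadjusted p. Around Kcnab2 the median log2 difference was 0.33 and the median GC content 56.6%. The nearest tested gene, the ribosomal protein gene Rpl22 at 56.7 kb on the side of lower coordinates, differed by -0.19 (adjusted p = 0.278, and -0.13 after the GC correction), and no gene on the other side was tested. Thap3 had the lowest p, with 6.31, 7.96 and 9.42 FPKM in WT replicates 1, 7 and 8 and 14.0, 14.0 and 12.3 in the KO replicates. All KO libraries lay above WT, as for 18.3% of tested genes (log2 difference 0.77, adjusted p = 0.0712, and 0.18 after the GC correction). Plekhg5 differed by 1.19 (adjusted p = 0.107) and by 0.59 after the GC correction.

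Over the 6 libraries, the tested genes whose log2 levels were most like those of Kcna7 were Zfp36 (Pearson r = 0.990), Myadm (0.989) and Hrct1 (0.975), out of 38 genes with r above 0.9. WT replicate 7 was the lowest library for all of them, as for Kcna7. For Kcnab1 they were Dhdh (0.995), Prkab2 (0.995) and 4933439F18Rik (0.994), out of 344 genes with r above 0.9, all lowest in KO replicate 7. These values describe 6 libraries that differ in genotype, depth and fibre content, and 12333 genes were searched for each.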

How the data were processed

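Gastrocnemius total RNA was made into stranded mRNA libraries and sequenced with paired 150-base reads. According to the submitters' processing notes, the authors used TopHat (GRCm38) for alignment and Cufflinks for quantification; versions and annotation are not given in the sources used here. The deposited values are FPKM per gene and library, so a log-scale linear model replaced a count test. The 12334 genes whose mean reached 0.5 FPKM were tested with limma 3.58.1 (R 4.3.3) on log2(FPKM + 0.1), with a variance trend. The tests were two-sided, with Benjamini-Hochberg adjustment over all of these genes. The code was run on simulated data without a GC trend and with larger changes than those of the tested subunits. That run does not bear on differences of the size reported for them. Single values were compared by exact two-sided permutation over the 6 mice, which with 3 against 3 cannot go below p = 0.1.

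Genes, sequences and coordinates were matched to GENCODE vM21 (GRCm38), which paired 32935 of 37979 identifiers; reads of overlapping genes cannot be told apart, since the strand setting of the counting is not given. The depth was estimated from the steps of low FPKM values, with 160 bases taken off each transcript length. The GC correction subtracted a loess curve (span 0.3) of each library on transcript GC content, known for 97.2% of tested genes. The genes and lists were chosen with earlier results of these data known. Named genes were all 10 subunits; per list, called genes or the 2 lowest p; for the Kcnab2 neighbourhood, also the nearest tested gene (1 gene that the rule named is not reported here); for the 2 most abundant subunits, the 3 genes with the highest correlation; Kcna10, Smtn, Acta2 and Myh11 were named after their values were seen. Libraries with the same replicate number shared little deviation from their genotype means (correlations -0.025, -0.080 and 0.034), which cannot exclude a pairing of the mice. Alternatives were other pseudocounts, filters, scalings and weights, a block, GC or length correction and leaving out each library. Plots were drawn with matplotlib 3.10.9.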

Additional observations from a re-analysis of the deposited data

How the results depend on the processing

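Depth limited 7 of the 10 genes: they lay under the filter, and counting error is large at up to 63.8 fragments per library. Kcna5, though tested, reached that range too, with about 58.5 fragments in WT replicate 7 and 62 in KO replicate 1. The main limma fit called 40 of all tested genes, both directions together. That count was 11 with a pseudocount of 1, 20 with no filter, 19 with no variance trend and 3147 with array weights. It was 14 with the GC correction and 1 with genes listed at 0 in any library left out. Leaving out 1 library gave 15 to 126 (126 without WT replicate 8). The replicate block gave 13, and 12 with the GC correction; it changed no call among the 10 genes. Alternatives chosen after seeing the data, the GC correction with no filter and no filter without KO replicate 1, gave 14 and 11. Of the 10 genes 0 were called under every setting but array weights, which called 2 (Kcna5 and Kcna7). A setting with a filter could not call a gene under it, as 7 of the 10 were in the main fit. Of the 40, 31 were higher in KO; with the GC correction the split was 6 to 8, and with no filter 9 to 11.

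Signs turned for Kcna7 with the GC correction (-0.42, with the block as well, and -0.29 with no filter) and Kifap3 (0.0058, with the block as well). Dpp6 was 0.026 with the length correction and -0.20 to 0.12 leaving out 1 library. With no filter Kcna6 was -0.11 with the GC correction and -0.030 without KO replicate 1, where Kcna1 was 0.045. Leaving out 1 library, differences of mean FPKM ran from -0.244 to 0.0203 for Kcna1, -0.0473 to 0.0443 for Kcna6 and -0.00816 to 0.0458 for Kcnab3; that of Kcna6 was -0.00094 with median-ratio scaling. The cause was not tested. The other settings left 352 of the gene values without a turned sign or a changed call (Kcna3 and Kcna4 had no difference left without the 1 library that held their fragment), and 7 passed it with array weights.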
